A study of Mus musculus with 12 samples.

Results

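The genes described here are those expressed in control ATDC5 cells in medium or after IL-1β and TNF-α, and the values are their levels in both states. A gene was included when it reached at least 1 FPKM (fragments scaled by gene length and library size) in at least 3 of the 6 libraries from these cells, which held for 11679 of the 46731 genes in the deposited table. ATDC5 is a mouse line that came from a teratocarcinoma and serves as a model of chondrocyte precursors. The labels call the cells teratocarcinoma cells and their genotype wildtype. Every culture carried a control hairpin (shRNA-NC) that a lentivirus had placed in the genome, in 1 stable line. Of the 6 cultures, 3 had no stimulation for 6 h (the medium libraries) and 3 received IL-1β together with TNF-α for 6 h (the cytokine libraries). The series holds 6 more libraries, from a line with a hairpin against *Ddx5*, an RNA helicase gene, in the same media, and it addressed what this helicase does in inflamed cartilage. Here those libraries served only to estimate the spread and to ask which responses differed between the lines. The study describes the 3 cultures of a group as independent experiments, and a single line cannot show how lines differ.

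IL-1β and TNF-α are secreted in inflamed joints and act through separate receptors on chondrocytes and fibroblasts. Adaptor proteins and kinases carry both signals to NF-κB, which IκB proteins hold in the cytoplasm until they are degraded, and to MAP kinases, which act on AP-1 and other factors. Known targets are chemokines, cytokines, matrix-degrading enzymes and the inhibitors that end the signal, and in cartilage cells both cytokines are known to lower genes of the cartilage matrix.

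Between 14119199 and 19276520 fragments lay on genes in each of the 6 libraries. Pearson's r of the log2 values ran from 0.971 to 0.992 within a group and from 0.928 to 0.957 between the groups, across genes, which are not independent replicates. Cytokine replicate 1 had 2.88% of its fragments on mitochondrial genes against 1.70% to 2.05% in the other libraries, and cytokine replicate 2 stood above its group in several genes named below. Of 10 chondrocyte markers 3 were expressed (*Sox9*, *Sox5* and *Col2a1*), while *Acan* had 3 fragments in all 6 libraries and *Hapln1* had 0. Of 10 fibroblast markers 9 were expressed, and of 8 pluripotency markers *Sox2* alone. Of 10 leukocyte markers *Cd68* alone was expressed, *Ptprc* and *Adgre1* had 0 fragments in every library, and no endothelial, epithelial, adipocyte or muscle marker reached the limit for inclusion. In what follows, an FPKM is given as the mean ± SD (n = 3) where single libraries are not listed, and a log2 difference (cytokine minus medium) is given ± its standard error. *Ddx5* itself stood at 325, 337 and 294 FPKM in the medium libraries and 327, 302 and 301 FPKM in the cytokine libraries, and its difference did not pass the test (log2 difference -0.04 ± 0.10, adjusted p = 0.794).

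The cytokines changed 34.9% of the expressed genes, most of them by little. The comparison used log2(FPKM + 1), on which genes near or below 1 FPKM show less than their true fold, with limma and Benjamini-Hochberg adjustment over the 11679 genes at a threshold of 0.05. In all, 4074 genes (34.9%) passed, of which 2249 (19.3% of all) were higher with the cytokines and 1825 (15.6%) were lower. These shares over all genes are the background for the counts of each list below. The median log2 difference was 0.02 over all genes, 0.54 over those called higher and -0.48 over those called lower. Leaving out each of the 6 libraries in turn gave 3153 to 3804 genes, and the number was 3626 without medium replicate 3, 3622 without cytokine replicate 1 and 3652 without cytokine replicate 2. Under both other scalings of the libraries the split turned, with 1807 higher and 2384 lower after quantile normalization and 1795 higher and 2457 lower after scaling to the sum of fragments, so the balance of small rises and falls depended on the scaling. The groups did not overlap in 5408 genes (46.3%), and 3950 of these passed.

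The large changes were mostly rises. A log2 difference of at least 1 together with the adjusted p was reached by 356 rising genes (3.05%) and 130 falling genes (1.11%). At 2 or more on the log2 scale the numbers were 88 and 9, at 3 or more 38 and 1, and at 4 or more 21 and 0. Below 1 FPKM in every medium library were 69 of the 356 rising genes, 21 of the 88, 12 of the 38 and 7 of the 21. They entered through the cytokine libraries alone and so could only enter as rises. Likewise, 31 of the 130 falling genes entered through the medium libraries alone and so could only enter as falls. Together the 88 genes held 0.158% to 0.189% of all fragments in the medium libraries and 1.83% to 2.06% in the cytokine libraries. *Cxcl1*, *Ccl2* and *Cxcl5*, the 3 largest rises on the log2(FPKM + 1) scale, together went from at most 0.00166% to between 0.346% and 0.464%. The 130 falling genes went from between 1.47% and 1.61% to between 0.405% and 0.566%. In cultures sequenced in bulk, a change in the share of cells that express a gene and a change in its RNA per cell cannot be told apart.

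**Figure D1:**
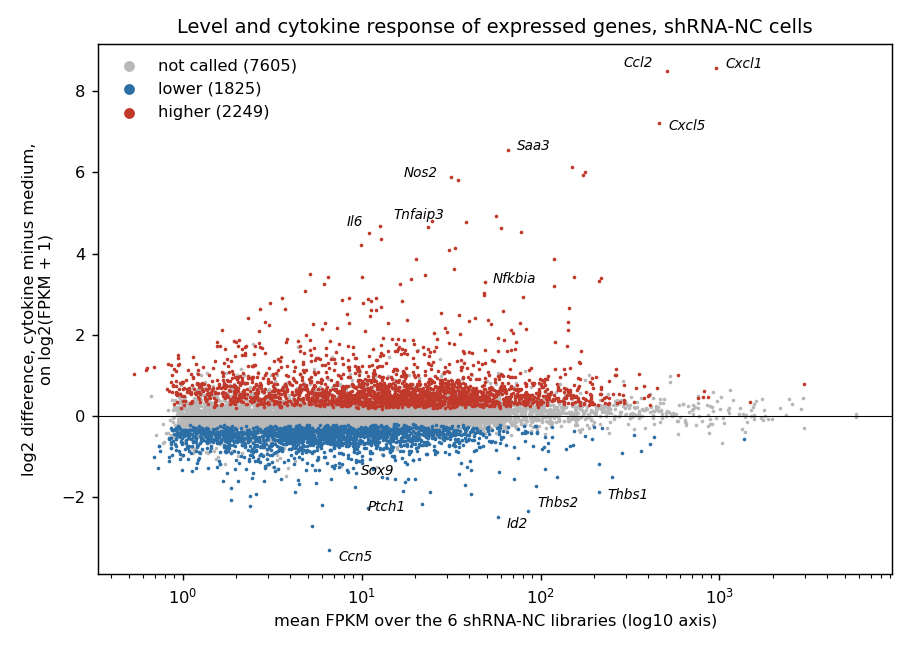
Each point is 1 of the 11679 genes, with its mean FPKM over the 6 libraries on a log10 x axis and its log2 difference (cytokine minus medium, on log2(FPKM + 1)) on the y axis, coloured by the call at an adjusted p of 0.05. The 21 genes above 4 have no counterpart below -4, and most of the 4074 called genes lie within 1 of the zero line.

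**Figure D2:**
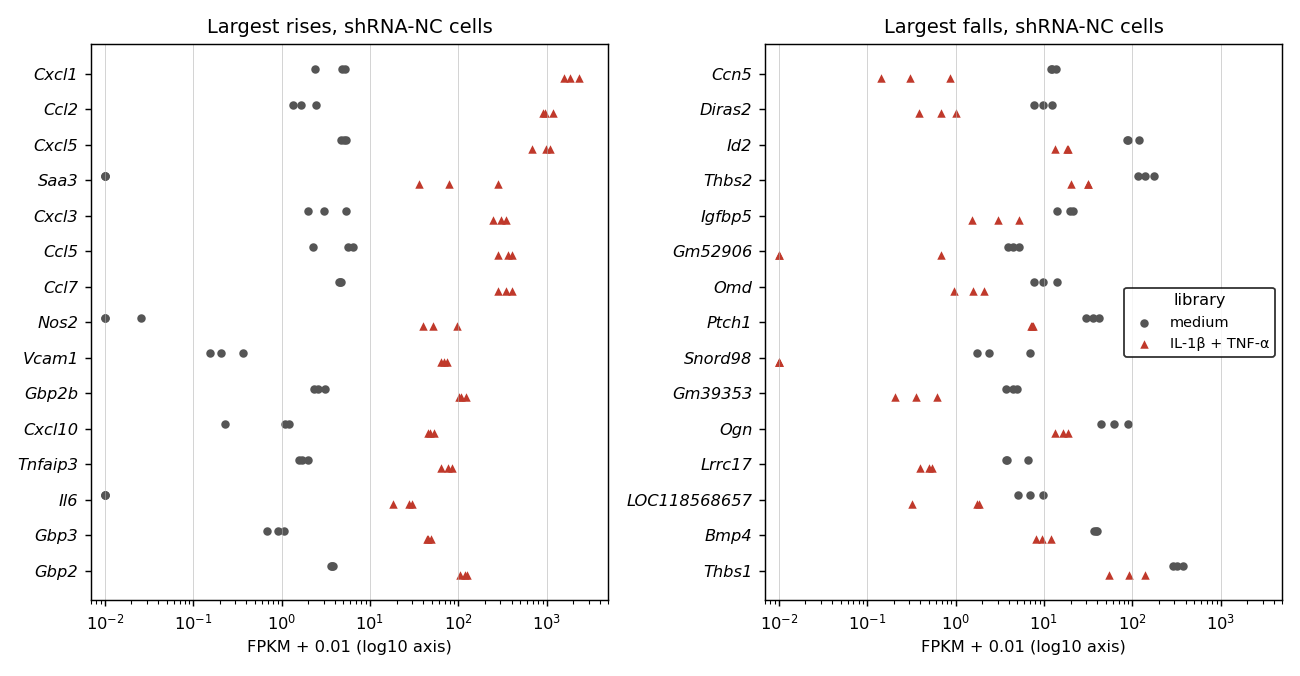
FPKM + 0.01 of the 15 largest rises and the 15 largest falls in each library, on a log10 axis, with a circle for each medium library and a triangle for each cytokine library, so that a listed value of 0 sits at the left edge. The genes were ranked by log2 difference among called genes whose groups did not overlap. By that choice no gene shown has a medium library inside the range of its cytokine libraries.

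Chemokines, the secreted proteins that attract leukocytes, gave the 3 largest rises on the log2(FPKM + 1) scale. By ratio to medium, several genes below 1 FPKM in medium exceeded *Cxcl5*, among them *Nos2*, *Saa3*, *Vcam1*, *Gbp5*, *Cxcl2* and *Cxcl11*, as given below. Some of these had few or no fragments in medium. Of 16 genes on a list of CXC chemokines and 1 scavenging receptor, *Ackr3*, 9 were expressed, 8 rose and 1 fell. Their median log2 difference was 4.22 against 0.02 over all genes (4.24 with *Cxcl9*, at 0 in medium, set to its lower bound). Of the 9, 4 reached 1 FPKM in the cytokine libraries alone and so could only enter as rises, and with 1 FPKM required in all 6 libraries 3 rose and 1 fell. *Cxcl1*, which encodes a neutrophil attractant, had 4.88, 5.26 and 2.37 FPKM in the medium libraries and 2334, 1834 and 1589 FPKM in the cytokine libraries. All 3 cytokine libraries lay far above all 3 medium libraries, and the ratio of the means was 460.3-fold (log2 difference 8.57 ± 0.21, adjusted p = 1.35e-10). *Cxcl5*, another neutrophil attractant, had 5.33, 5.12 and 4.66 FPKM in the medium libraries and 1088, 973 and 679 FPKM in the cytokine libraries. The groups were again far apart (181-fold, log2 difference 7.22 ± 0.14, adjusted p = 2.28e-11). *Cxcl3* and *Cxcl2*, from the same family, went from 3.45 ± 1.72 to 298 ± 50.7 FPKM (log2 difference 6.13 ± 0.22, adjusted p = 6.05e-09) and from 0.106 ± 0.146 to 19.8 ± 3.81 FPKM (log2 difference 4.22 ± 0.14, adjusted p = 1.92e-09). *Cxcl2* lay at 0.273 FPKM or less in the medium libraries, on 7 fragments in all. These 4 genes lie within 146.6 kb of chromosome 5, in a cluster of 7 CXC genes at chr5:90907157-91053797 (GRCm39), and the other 3 were below the limit for inclusion. They are alike in sequence, so fragments that fit more than 1 of them make the split between them uncertain.

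*Cxcl10* and *Cxcl9*, which attract T cells and are known as interferon targets, and *Cxcl11*, which the table lists as a transcribed pseudogene, lie in a second cluster on the chromosome, and all 3 rose. *Cxcl10* had 0.220, 1.07 and 1.21 FPKM in the medium libraries and 47.5, 53.0 and 45.0 FPKM in the cytokine libraries. The lowest cytokine library stood far above the highest medium library (58.1-fold, log2 difference 4.80 ± 0.20, adjusted p = 1.76e-08). *Cxcl11* went from a mean of 0.0101 to 6.17 FPKM (log2 difference 2.79 ± 0.18, adjusted p = 4.61e-07). *Cxcl9* was listed at 0 in medium and reached 1.07 FPKM (at least 18.9-fold above the 3 fragments per library that a count of 0 allows, log2 difference 1.05 ± 0.10, adjusted p = 2.16e-05). *Cxcl12*, a stromal chemokine that retains blood progenitors, moved the other way, with 146, 149.8 and 140.3 FPKM in the medium libraries and 35.3, 39.5 and 57.7 FPKM in the cytokine libraries. Every cytokine library lay below every medium library (3.29-fold lower, log2 difference -1.73 ± 0.14, adjusted p = 3.86e-06). *Ackr3*, which encodes a scavenging receptor for CXCL12, rose from 0.390 ± 0.0701 to 2.20 ± 0.248 FPKM (log2 difference 1.20 ± 0.093, adjusted p = 2.66e-06).

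Among 22 CC chemokine genes and fractalkine 7 were expressed and 6 rose, with a median log2 difference of 4.54 (5.93 with *Ccl20*, at 0 in medium, set to its lower bound). Of these 7, 2 entered through the cytokine libraries alone, and 4 of the 5 with 1 FPKM in every library rose. *Ccl2*, which encodes the main attractant of monocytes, had 2.47, 1.34 and 1.65 FPKM in the medium libraries and 919, 1186 and 949 FPKM in the cytokine libraries. This was the largest ratio of means among the CC genes detected in medium (559-fold, log2 difference 8.51 ± 0.17, adjusted p = 2.28e-11). *Ccl7*, its neighbour in a cluster of 6 CC genes on chromosome 11, went from 4.57 ± 0.149 to 342 ± 60.9 FPKM (log2 difference 5.93 ± 0.11, adjusted p = 1.89e-11), and *Ccl8* from the same cluster from 0.278 ± 0.0947 to 7.22 ± 2.31 FPKM (log2 difference 2.65 ± 0.21, adjusted p = 2.82e-06). *Ccl5* lies in a second cluster on that chromosome and went from 4.76 ± 2.20 to 352 ± 62.1 FPKM (log2 difference 6.01 ± 0.26, adjusted p = 2.51e-08). *Ccl20*, which attracts cells that carry CCR6, was listed at 0 in medium and had 22.1 FPKM with the cytokines (at least 108-fold, log2 difference 4.50 ± 0.14, adjusted p = 1.69e-09). *Cx3cl1*, the membrane-bound fractalkine, went from 5.52 ± 1.59 to 149 ± 28.2 FPKM (log2 difference 4.54 ± 0.18, adjusted p = 9.97e-09). *Ccl25* (3.82 ± 0.277 to 4.28 ± 0.226 FPKM) was the only expressed gene of this list that did not pass.

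The stretches of promoter shown here are from genes that rose and were picked because they hold the NF-κB motif. Most strongly rising genes with a promoter window lacked it, as given below. They run from 170 bases before to 10 bases after the first base of the gene on the gene's own strand, from the RefSeq promoter table of GRCm38.p6, an older build than that of the gene coordinates above. Capitals mark bases that match the NF-κB consensus on either strand. The consensus was GGGRNWYYCC, where R is A or G, W is A or T, Y is C or T and N is any base. They are *Cxcl1* (chr5:90891075-90891254, plus strand), *Cxcl2* (chr5:90903729-90903908, plus), *Cxcl3* (chr5:90785931-90786110, plus), *Cxcl10* (chr5:92348880-92349059, minus), *Il6* (chr5:30012944-30013123, plus) and *Nfkbia* (chr12:55492638-55492817, minus).
Cxcl1: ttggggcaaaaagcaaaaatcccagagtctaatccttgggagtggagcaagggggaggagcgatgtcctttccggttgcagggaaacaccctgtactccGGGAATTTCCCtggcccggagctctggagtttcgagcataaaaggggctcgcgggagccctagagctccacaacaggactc
Cxcl2: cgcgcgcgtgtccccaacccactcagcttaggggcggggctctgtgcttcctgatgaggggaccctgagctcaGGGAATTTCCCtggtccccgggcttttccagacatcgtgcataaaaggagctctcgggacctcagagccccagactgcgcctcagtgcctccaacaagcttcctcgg
Cxcl3: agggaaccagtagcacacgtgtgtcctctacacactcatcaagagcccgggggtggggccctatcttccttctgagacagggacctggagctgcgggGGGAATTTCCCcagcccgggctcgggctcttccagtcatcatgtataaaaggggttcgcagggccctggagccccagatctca
Cxcl10: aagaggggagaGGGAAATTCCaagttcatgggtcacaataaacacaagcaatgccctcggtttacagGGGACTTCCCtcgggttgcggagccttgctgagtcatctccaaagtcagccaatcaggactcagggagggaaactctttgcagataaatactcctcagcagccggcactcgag
Il6: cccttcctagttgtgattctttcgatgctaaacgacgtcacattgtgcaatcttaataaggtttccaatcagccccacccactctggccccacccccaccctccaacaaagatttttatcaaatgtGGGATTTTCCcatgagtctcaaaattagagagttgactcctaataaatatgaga
Nfkbia: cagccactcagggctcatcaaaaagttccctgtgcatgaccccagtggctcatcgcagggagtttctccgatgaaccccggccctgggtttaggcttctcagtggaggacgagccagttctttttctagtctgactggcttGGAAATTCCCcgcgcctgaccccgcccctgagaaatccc
*Cxcl1*, *Cxcl2* and *Cxcl3* held the same 11 bases, GGGAATTTCCC, starting at base -71, -97 and -73 from the gene start. *Cxcl10* held GGGAAATTCC at base -159 and GGGACTTCCC at base -103. *Il6* held GGGATTTTCC at base -44 and *Nfkbia* GGAAATTCCC at base -29. A match of letters is a description of the sequence and does not show that a factor was bound.

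Of 27 cytokine and colony-stimulating factor genes 10 were expressed, and 8 of these 10 rose. Of the 10, 4 were included through the cytokine libraries alone, and 4 of the 6 with 1 FPKM in every library rose (median 0.81). *Il6*, which encodes a cytokine of the acute-phase response, had 0 FPKM in each of the 3 medium libraries and 29.9, 27.7 and 18.0 FPKM in the cytokine libraries. Every cytokine library had at least 387 fragments where the medium libraries had 0, a rise of at least 175-fold (log2 difference 4.68 ± 0.18, adjusted p = 7.88e-09). *Csf1*, the growth factor of macrophages, had 30.3, 26.6 and 20.1 FPKM in the medium libraries and 276, 271 and 303 FPKM in the cytokine libraries. The 3 medium libraries were the lowest (11.04-fold, log2 difference 3.43 ± 0.12, adjusted p = 3.92e-09). *Csf2*, which encodes the granulocyte-macrophage factor, was listed at 0 in medium and reached 5.43 FPKM (at least 42.4-fold, log2 difference 2.64 ± 0.18, adjusted p = 9.94e-07). *Lif*, a cytokine of the IL-6 family, went from 0.0744 ± 0.0661 to 7.16 ± 1.59 FPKM (log2 difference 2.91 ± 0.13, adjusted p = 2.78e-08), *Il15* from 0.527 ± 0.236 to 3.02 ± 0.443 FPKM (log2 difference 1.40 ± 0.13, adjusted p = 1.36e-05), *Clcf1* from 7.14 ± 2.39 to 17.8 ± 2.93 FPKM (log2 difference 1.24 ± 0.19, adjusted p = 0.00051) and *Il34*, a ligand of the CSF1 receptor, from 1.58 ± 0.404 to 4.19 ± 0.329 FPKM (log2 difference 1.02 ± 0.13, adjusted p = 0.000182). *Il1b* and *Tnf*, the genes of the added cytokines, had 0 fragments in all 6 libraries, so no induction of either was detectable at this depth. *Csf3* was below the limit, with 4 fragments in the medium libraries and 23 in the cytokine libraries.

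Both inhibitors and subunits of NF-κB rose. Of 19 expressed genes on a list of subunits, IκB proteins and feedback inhibitors 11 rose and 2 fell, and the median log2 difference was 1.02. *Tnfaip3*, which encodes the ubiquitin-editing inhibitor A20, had 1.57, 1.69 and 1.98 FPKM in the medium libraries and 63.8, 84.4 and 75.5 FPKM in the cytokine libraries. All cytokine libraries were above all medium libraries (42.7-fold, log2 difference 4.78 ± 0.10, adjusted p = 5.1e-11). *Nfkbia*, which encodes IκBα, had 21.7, 23.2 and 22.9 FPKM in the medium libraries and 219, 212 and 214 FPKM in the cytokine libraries. The 3 values of each group lay within a narrow range, and the ratio was 9.52-fold (log2 difference 3.19 ± 0.082, adjusted p = 1.97e-10). *Nfkbiz* (log2 difference 3.37 ± 0.13, adjusted p = 1.05e-08), *Nfkbie* (log2 difference 2.62 ± 0.10, adjusted p = 7.17e-09) and *Nfkbib* (log2 difference 1.78 ± 0.085, adjusted p = 4.79e-08) encode other IκB proteins and rose as well. *Zc3h12a*, whose product Regnase-1 degrades cytokine mRNA, went from 1.10 ± 0.413 to 14.5 ± 4.47 FPKM (log2 difference 2.86 ± 0.23, adjusted p = 3.36e-06). The subunit genes that rose had log2 differences between 1.02 and 1.77. *Nfkb2* went from 8.31 ± 1.60 to 30.9 ± 5.70 FPKM (log2 difference 1.77 ± 0.15, adjusted p = 4.64e-06), *Relb* from 2.49 ± 0.283 to 10.2 ± 1.86 FPKM (log2 difference 1.67 ± 0.12, adjusted p = 1.23e-06), *Nfkb1* from 19.0 ± 2.72 to 49.7 ± 4.06 FPKM (log2 difference 1.35 ± 0.10, adjusted p = 1.85e-06) and *Rela* from 40.1 ± 9.002 to 81.3 ± 2.38 FPKM (log2 difference 1.02 ± 0.14, adjusted p = 0.000205). *Rel* did not pass (4.38 ± 0.350 to 4.14 ± 0.202 FPKM, adjusted p = 0.779). *Ikbkg*, the scaffold of the IκB kinase, and *Cyld*, a deubiquitinase that restrains the pathway, fell by modest amounts, with log2 differences of -0.49 and -0.46 (adjusted p = 0.000462 and 0.00145).

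Of 29 expressed genes on a list of receptors and adaptors of IL-1 and TNF 14 rose and 1 fell, and none fell without medium replicate 1 or 2 or cytokine replicate 1. Of the 29, 3 entered through the cytokine libraries alone, and 11 of the 26 with 1 FPKM in every library rose. *Ripk2*, a kinase that carries signals from NOD receptors, had 14.5, 13.1 and 15.1 FPKM in the medium libraries and 238, 217 and 212 FPKM in the cytokine libraries. The groups were far apart (15.6-fold, log2 difference 3.87 ± 0.095, adjusted p = 1.35e-10). *Fas*, the death receptor, went from 0.271 ± 0.0780 to 25.4 ± 4.11 FPKM (log2 difference 4.37 ± 0.12, adjusted p = 4.08e-10). *Il1rl1*, which encodes the IL-33 receptor ST2, went from 2.92 ± 0.302 to 42.3 ± 3.52 FPKM (log2 difference 3.46 ± 0.10, adjusted p = 4.86e-10), *Traf1* from 1.77 ± 0.209 to 14.8 ± 1.07 FPKM (log2 difference 2.52 ± 0.10, adjusted p = 8.48e-09), and *Tlr2*, a receptor of bacterial lipoproteins, from 13.6 ± 3.10 to 57.7 ± 4.96 FPKM (log2 difference 2.02 ± 0.14, adjusted p = 8.28e-07). *Birc3*, a ubiquitin ligase of TNF receptor complexes, went from 0.531 ± 0.110 to 3.79 ± 0.308 FPKM (log2 difference 1.65 ± 0.092, adjusted p = 1.74e-07). Of the receptors for the added ligands, *Il1r1* went from 2.18 ± 0.286 to 4.54 ± 0.307 FPKM (log2 difference 0.80 ± 0.089, adjusted p = 4.64e-05) and *Tnfrsf1b* from 4.23 ± 0.0252 to 12.6 ± 1.21 FPKM (log2 difference 1.37 ± 0.081, adjusted p = 2.53e-07), while *Tnfrsf1a* stood at 69.7, 69.2 and 63.5 FPKM in the medium libraries and 58.0, 68.2 and 65.4 FPKM in the cytokine libraries. The groups of *Tnfrsf1a* overlapped and its difference did not pass (adjusted p = 0.561). *Myd88*, the adaptor of the IL-1 receptor, rose by 0.57 on the log2 scale (adjusted p = 0.000286), and *Traf6* did not pass (6.76 ± 0.712 to 8.83 ± 1.93 FPKM, adjusted p = 0.0817) unless cytokine replicate 2 was left out (adjusted p = 0.0366).

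Of 12 expressed genes of inflammatory and oxygen enzymes 8 rose, none fell and the other 4 did not pass. Of the 12, 1 entered through the cytokine libraries alone, and 6 of the 9 with 1 FPKM in every library rose. *Nos2*, which encodes the inducible nitric oxide synthase, had 0, 0 and 0.0155 FPKM in the medium libraries and 40.3, 97.2 and 52.1 FPKM in the cytokine libraries. The medium libraries held 1 fragment and the cytokine libraries 14921, and their ratio, after division by the library denominators behind the FPKM, was 15392-fold with a 95% exact counting interval from 2762 to 608000 (log2 difference 5.90 ± 0.23, adjusted p = 8.97e-09). *Ptgs2*, which encodes cyclooxygenase 2, had 2.35, 2.78 and 2.51 FPKM in the medium libraries and 78.8, 75.9 and 38.2 FPKM in the cytokine libraries. The lowest cytokine library, replicate 3, was still far above the highest medium library (25.3-fold, log2 difference 4.13 ± 0.23, adjusted p = 1.81e-07). *Sod2*, the mitochondrial superoxide dismutase, went from 19.6 ± 2.20 to 60.1 ± 4.51 FPKM (log2 difference 1.57 ± 0.10, adjusted p = 3.91e-07). *Gch1*, which makes the cofactor of nitric oxide synthase, went from 8.71 ± 1.89 to 17.8 ± 2.44 FPKM (log2 difference 0.96 ± 0.14, adjusted p = 0.000423), and *Hmox1*, a haem-degrading enzyme, from 93.2 ± 14.8 to 238 ± 77.1 FPKM (log2 difference 1.31 ± 0.20, adjusted p = 0.000424). *Ptges*, the prostaglandin E synthase that partners with COX-2, was below the limit, with 5 and 56 fragments.

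Of 28 acute-phase and complement genes 5 were expressed, and the 2 that rose entered through the cytokine libraries alone. *Saa3*, which encodes serum amyloid A3, had 0 FPKM in each of the 3 medium libraries and 36.3, 278 and 79.1 FPKM in the cytokine libraries. Cytokine replicate 2 stood far above the other 2 cytokine libraries, and the groups did not overlap (at least 424-fold, log2 difference 6.56 ± 0.51, adjusted p = 3e-06). Without that library the rise of *Saa3* was at least 186-fold and its log2 difference 5.77 (adjusted p = 1.26e-07). *Lcn2*, which encodes the iron-scavenging lipocalin 2, had 0 FPKM in each of the 3 medium libraries and 4.84, 20.3 and 3.87 FPKM in the cytokine libraries. The same library was the highest (at least 50.3-fold, log2 difference 3.08 ± 0.41, adjusted p = 0.000171). Without it the rise of *Lcn2* was at least 22.6-fold (log2 difference 2.42, adjusted p = 1.26e-07). *C3* did not reach 1 FPKM in 3 libraries, with 13 fragments in medium and 229 with the cytokines. Of 10 expressed adhesion genes 5 rose and 1 fell. Of these 10, 1 entered through the cytokine libraries alone, and of the 9 with 1 FPKM in every library 4 rose and 1 fell. *Vcam1*, which binds leukocyte integrins, had 0.357, 0.145 and 0.196 FPKM in the medium libraries and 68.4, 74.9 and 62.8 FPKM in the cytokine libraries. The groups were separated by a wide gap (295-fold, log2 difference 5.82 ± 0.095, adjusted p = 1.41e-11). *Cd44*, the hyaluronan receptor, went from 25.2 ± 0.978 to 129 ± 18.9 FPKM (log2 difference 2.30 ± 0.10, adjusted p = 2.85e-08), *Selp* from 26.2 ± 1.37 to 98.3 ± 7.49 FPKM (log2 difference 1.87 ± 0.086, adjusted p = 3.69e-08) and *Pvr* from 6.97 ± 1.13 to 23.7 ± 6.50 FPKM (log2 difference 1.61 ± 0.15, adjusted p = 1.53e-05). *Icam1* was below the limit, with 47 and 160 fragments.

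Of 40 expressed genes of the interferon response 36 rose, none fell and the other 4 did not pass, and the median log2 difference was 1.03. Of the 40, 13 entered through the cytokine libraries alone, and of the 26 with 1 FPKM in every library 23 rose (median 0.80). The guanylate-binding proteins are GTPases of the defence against intracellular microbes. *Gbp2* had 3.58, 3.67 and 3.85 FPKM in the medium libraries and 124, 119.9 and 105 FPKM in the cytokine libraries. Every cytokine library exceeded every medium library (31.4-fold, log2 difference 4.64 ± 0.082, adjusted p = 1.85e-11). *Gbp2b* and *Gbp3* had similar sizes of difference, from 2.67 ± 0.414 to 110.2 ± 10.05 FPKM (log2 difference 4.92 ± 0.10, adjusted p = 2.28e-11) and from 0.876 ± 0.193 to 46.2 ± 2.50 FPKM (log2 difference 4.66 ± 0.11, adjusted p = 1.35e-10). *Gbp5* was listed at 0 in medium and reached 10.4 FPKM (at least 190.4-fold, log2 difference 3.49 ± 0.11, adjusted p = 9.58e-10), and *Gbp7* went from 0.510 ± 0.0215 to 4.01 ± 0.463 FPKM (log2 difference 1.73 ± 0.15, adjusted p = 6.43e-06). These 5 genes lie together at chr3:142202695-142343769 (GRCm39). *Gbp2* and *Gbp2b* are near copies, so the split of fragments between them is uncertain. The *Gbp2* promoter (chr3:142620493-142620672, plus strand, GRCm38.p6) is shown because it holds a match to the interferon-stimulated response element (GAAA, any 2 bases, GAAA), in capitals on the other strand, which starts at base -59.
Gbp2: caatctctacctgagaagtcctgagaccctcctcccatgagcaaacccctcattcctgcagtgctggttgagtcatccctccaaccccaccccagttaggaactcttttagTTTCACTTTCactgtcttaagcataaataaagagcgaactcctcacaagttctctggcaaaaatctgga
*Irf1*, which encodes a transcription factor downstream of both NF-κB and interferon, went from 8.04 ± 1.01 to 26.9 ± 4.72 FPKM (log2 difference 1.62 ± 0.13, adjusted p = 2.9e-06). *Ifit1* went from 1.13 ± 0.0382 to 9.57 ± 2.89 FPKM (log2 difference 2.28 ± 0.19, adjusted p = 4.07e-06), *Isg15* from 0.174 ± 0.0778 to 2.95 ± 0.879 FPKM (log2 difference 1.73 ± 0.15, adjusted p = 6.77e-06), *Mx2*, listed as a transcribed pseudogene, from 0.117 ± 0.0221 to 3.01 ± 0.590 FPKM (log2 difference 1.83 ± 0.11, adjusted p = 3.71e-07) and *Xaf1* from 1.46 ± 0.294 to 11.1 ± 0.420 FPKM (log2 difference 2.30 ± 0.12, adjusted p = 8.17e-08). *Irf7*, which carries the interferon signal, rose by less, from 0.417 ± 0.153 to 1.58 ± 0.565 FPKM (log2 difference 0.85 ± 0.16, adjusted p = 0.00198). *Ifnb1*, the gene of interferon-β, had 0 fragments in all 6 libraries.

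Genes of antigen presentation by MHC class I rose in 17 of the 19 expressed, with a median log2 difference of 1.36. *Psmb10*, an immunoproteasome subunit, had 9.44, 8.11 and 7.02 FPKM in the medium libraries and 70.9, 100.2 and 98.7 FPKM in the cytokine libraries. All cytokine libraries were above all medium libraries (10.98-fold, log2 difference 3.30 ± 0.14, adjusted p = 2.06e-08). *Tapbpl* and *Tapbp*, which load peptides, went from 2.68 ± 0.615 to 21.4 ± 0.539 FPKM (log2 difference 2.62 ± 0.13, adjusted p = 4.85e-08) and from 52.7 ± 10.7 to 188 ± 22.1 FPKM (log2 difference 1.83 ± 0.16, adjusted p = 5.56e-06). *H2-K1*, a classical class I heavy chain, went from 16.8 ± 1.31 to 106 ± 8.29 FPKM (log2 difference 2.59 ± 0.10, adjusted p = 7.88e-09) and *H2-D1* from 83.2 ± 10.9 to 255 ± 31.4 FPKM (log2 difference 1.60 ± 0.14, adjusted p = 5.33e-06), with the split between class I genes uncertain because they share sequence. *B2m*, the light chain, had 181, 193 and 136 FPKM in the medium libraries and 475, 287 and 294 FPKM in the cytokine libraries. Cytokine replicate 1 was the highest, and the groups did not overlap (log2 difference 1.02 ± 0.18, adjusted p = 0.00135). *Psme2*, a proteasome activator subunit, went from 25.3 ± 5.69 to 112 ± 12.6 FPKM (log2 difference 2.12 ± 0.14, adjusted p = 7.38e-07), and *Tap1*, a subunit of the peptide transporter, from 6.38 ± 0.732 to 14.7 ± 2.49 FPKM (log2 difference 1.08 ± 0.12, adjusted p = 6.39e-05).

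Immediate-early transcription factors rose in 21 of 29 expressed genes, and none fell at the threshold. Of the 29, 2 entered through the cytokine libraries alone, and 20 of the 27 with 1 FPKM in every library rose. *Egr1*, a zinc finger factor downstream of ERK, had 3.33, 3.54 and 1.19 FPKM in the medium libraries and 68.1, 57.9 and 51.3 FPKM in the cytokine libraries. The lowest cytokine library exceeded the highest medium library (21.98-fold, log2 difference 4.09 ± 0.23, adjusted p = 2.06e-07). *Junb* went from 41.7 ± 19.6 to 248 ± 46.4 FPKM (log2 difference 2.66 ± 0.33, adjusted p = 0.000109) and *Fosl1* from 8.18 ± 4.34 to 47.5 ± 8.53 FPKM (log2 difference 2.53 ± 0.36, adjusted p = 0.000283), both parts of AP-1. Medium replicate 3 was the lowest library in each of these 3 genes. *Cebpd*, an acute-phase transcription factor, had 0.859, 0.872 and 0.530 FPKM in the medium libraries and 9.75, 29.3 and 18.9 FPKM in the cytokine libraries. Cytokine replicate 2 was the highest (25.6-fold, log2 difference 3.42 ± 0.28, adjusted p = 3.98e-06). *Ier3* went from 37.6 ± 5.86 to 385 ± 47.5 FPKM (log2 difference 3.33 ± 0.14, adjusted p = 1.34e-08), *Ier5* from 10.1 ± 3.20 to 86.9 ± 11.8 FPKM (log2 difference 3.03 ± 0.20, adjusted p = 7.59e-07), *Maff* from 2.10 ± 0.553 to 21.9 ± 1.33 FPKM (log2 difference 2.90 ± 0.13, adjusted p = 2.09e-08) and *Jun* from 17.4 ± 2.06 to 41.4 ± 3.81 FPKM (log2 difference 1.21 ± 0.11, adjusted p = 7.44e-06). *Fos* stayed low at 6 h, from 0.371 ± 0.0997 to 2.06 ± 0.602 FPKM (log2 difference 1.14 ± 0.16, adjusted p = 0.000215), and *Myc* was high in both states, from 104 ± 12.3 to 168 ± 5.29 FPKM (log2 difference 0.69 ± 0.088, adjusted p = 0.000129).

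On a list of MAP kinase phosphatases, ERK feedback inhibitors and related genes such as *Etv5*, 14 of 19 expressed genes rose, and none fell at the threshold. Of the 19, 2 entered through the cytokine libraries alone, and 11 of the 16 with 1 FPKM in every library rose. *Errfi1*, an inhibitor of the EGF receptor, had 2.28, 2.33 and 2.18 FPKM in the medium libraries and 35.9, 33.7 and 22.4 FPKM in the cytokine libraries. Here too the 3 cytokine libraries were the highest (13.5-fold, log2 difference 3.25 ± 0.14, adjusted p = 1.85e-08). *Dusp6* and *Dusp5*, which dephosphorylate ERK, went from 3.40 ± 0.181 to 30.4 ± 4.95 FPKM (log2 difference 2.82 ± 0.11, adjusted p = 8.81e-09) and from 10.7 ± 0.747 to 49.3 ± 13.2 FPKM (log2 difference 2.07 ± 0.16, adjusted p = 2.59e-06). *Phlda1* went from 9.78 ± 0.206 to 60.4 ± 9.47 FPKM (log2 difference 2.50 ± 0.11, adjusted p = 1.85e-08), *Etv5* from 1.36 ± 0.255 to 8.49 ± 0.850 FPKM (log2 difference 2.01 ± 0.10, adjusted p = 8.15e-08), *Spry2* from 0.621 ± 0.199 to 3.83 ± 0.956 FPKM (log2 difference 1.56 ± 0.14, adjusted p = 7.77e-06) and *Dusp4* from 4.14 ± 0.662 to 11.6 ± 1.63 FPKM (log2 difference 1.29 ± 0.12, adjusted p = 1.06e-05). *Dusp1*, which acts mainly on p38 and JNK, stood at 9.72, 10.1 and 11.2 FPKM in the medium libraries and 10.5, 10.1 and 9.23 FPKM in the cytokine libraries. Its groups overlapped and the difference did not pass (adjusted p = 0.765). Among 25 expressed growth factors and receptors 11 rose and 8 fell. Of the 25, 4 entered through the cytokine libraries alone, and of the 19 with 1 FPKM in every library 7 rose and 8 fell. *Ereg*, an EGF receptor ligand, went from 0.299 ± 0.117 to 11.99 ± 4.47 FPKM (log2 difference 3.26 ± 0.21, adjusted p = 5.21e-07), *Fgf7* from 26.4 ± 0.911 to 113 ± 19.2 FPKM (log2 difference 2.05 ± 0.19, adjusted p = 1.15e-05), *Vegfa* from 17.6 ± 2.33 to 56.1 ± 14.1 FPKM (log2 difference 1.59 ± 0.15, adjusted p = 1.69e-05) and *Hbegf* from 1.42 ± 0.198 to 5.67 ± 0.960 FPKM (log2 difference 1.46 ± 0.13, adjusted p = 6.53e-06). *Igfbp5* and *Igfbp3*, which bind IGFs, fell from 18.4 ± 3.83 to 3.23 ± 1.82 FPKM (log2 difference -2.27 ± 0.25, adjusted p = 4.5e-05) and from 106 ± 10.4 to 36.1 ± 4.63 FPKM (log2 difference -1.54 ± 0.11, adjusted p = 9.79e-07).

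Genes of matrix breakdown moved both ways, with 10 of 18 expressed genes higher and 4 lower. Of the 18, 2 entered through the cytokine libraries alone, and of the 15 with 1 FPKM in every library 8 rose and 4 fell. *Mmp3*, which encodes stromelysin 1, had 0.0269, 0.0273 and 0.111 FPKM in the medium libraries and 1.73, 14.3 and 1.95 FPKM in the cytokine libraries. Cytokine replicate 2 was far above the other 2, and the difference passed (log2 difference 2.24 ± 0.49, adjusted p = 0.00461). Without that library the log2 difference was 1.43 (adjusted p = 5.17e-06). *Mmp13*, the main collagenase of cartilage, was below the limit for inclusion, with 0 fragments in medium and 19, 213 and 23 fragments in the cytokine libraries. *Adamts4*, an aggrecanase, went from 0.794 ± 0.0526 to 2.86 ± 0.752 FPKM (log2 difference 1.09 ± 0.13, adjusted p = 8.33e-05), and *Adamts5*, the other main aggrecanase, from 0.922 ± 0.0821 to 1.61 ± 0.751 FPKM, which did not pass (adjusted p = 0.0717) but did without cytokine replicate 1 (log2 difference 0.55, adjusted p = 0.0256). Members of the plasminogen system rose, namely *Plat* (log2 difference 1.61 ± 0.12, adjusted p = 1.61e-06), *Plaur* (log2 difference 1.53 ± 0.13, adjusted p = 6.28e-06) and *Plau* (log2 difference 1.18 ± 0.11, adjusted p = 1.14e-05). The inhibitors of metalloproteinases split. *Timp3* had 170.2, 182 and 199 FPKM in the medium libraries and 65.4, 68.5 and 58.7 FPKM in the cytokine libraries. It fell without overlap of the groups (2.86-fold lower, log2 difference -1.50 ± 0.092, adjusted p = 3.39e-07). *Timp2* fell from 371 ± 18.3 to 197 ± 18.1 FPKM (log2 difference -0.91 ± 0.090, adjusted p = 1.87e-05) and *Timp1* rose from 41.7 ± 10.4 to 93.4 ± 16.3 FPKM (log2 difference 1.16 ± 0.18, adjusted p = 0.000569).

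Most expressed genes on the list of cartilage matrix and chondrogenic regulators fell. Of its 33 genes 11 were expressed, 7 fell, 1 rose and 3 did not pass, with a median log2 difference of -0.87. Of the 11, 1 reached 1 FPKM in the medium libraries alone and so could only enter as a fall. With 1 FPKM required in all 6 libraries 6 of 9 fell and 1 rose. *Sox9*, the transcription factor that directs chondrocyte fate, had 27.4, 27.2 and 27.8 FPKM in the medium libraries and 8.38, 9.51 and 8.38 FPKM in the cytokine libraries. The groups were tight and did not overlap (3.14-fold lower, log2 difference -1.55 ± 0.086, adjusted p = 1.62e-07). *Col2a1*, which encodes type II collagen, had 13.2, 15.04 and 9.09 FPKM in the medium libraries and 3.64, 6.49 and 8.85 FPKM in the cytokine libraries. The highest cytokine library lay just below the lowest medium library (1.97-fold lower, log2 difference -0.92 ± 0.23, adjusted p = 0.0105), and with the 6 control libraries alone in the fit the call of *Col2a1* was lost (adjusted p = 0.0563). *Foxc1* fell from 51.6 ± 4.58 to 18.8 ± 3.08 FPKM (log2 difference -1.42 ± 0.11, adjusted p = 2.32e-06), *Matn2* from 20.3 ± 1.88 to 9.93 ± 1.98 FPKM (log2 difference -0.98 ± 0.12, adjusted p = 8.28e-05), *Runx2*, which drives chondrocyte hypertrophy, from 10.6 ± 0.805 to 5.12 ± 0.732 FPKM (log2 difference -0.93 ± 0.10, adjusted p = 4.01e-05), *Trps1* from 3.43 ± 0.397 to 1.42 ± 0.0410 FPKM (log2 difference -0.87 ± 0.12, adjusted p = 0.000241) and *Sox5*, a partner of SOX9, from 1.75 ± 0.203 to 0.672 ± 0.0855 FPKM (log2 difference -0.72 ± 0.086, adjusted p = 8.25e-05). *Runx1* rose from 10.4 ± 1.17 to 16.1 ± 0.669 FPKM (log2 difference 0.59 ± 0.092, adjusted p = 0.000537). *Col11a1* was below the limit, with 405 fragments in medium and 127 with the cytokines.

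In the interstitial matrix 9 of 30 expressed genes (30%) fell and 8 (26.7%) rose, against 15.6% and 19.3% of all genes tested. Of the 30, 1 entered through the cytokine libraries alone, and of the 26 with 1 FPKM in every library 8 fell and 6 rose. *Col1a2*, the second chain of type I collagen and a marker of fibrous matrix, had 492, 494 and 512 FPKM in the medium libraries and 234, 369.9 and 352 FPKM in the cytokine libraries. All cytokine libraries were lower, cytokine replicate 1 most (log2 difference -0.67 ± 0.15, adjusted p = 0.00561). *Col1a1* (19.7 ± 4.06 to 12.1 ± 5.90 FPKM) and *Col3a1* (12.2 ± 0.970 to 8.26 ± 5.75 FPKM) had overlapping groups and did not pass (adjusted p = 0.0581 and 0.106). Both calls changed with the libraries kept. Without cytokine replicate 2 both passed, with log2 differences of -1.07 for *Col1a1* and -1.17 for *Col3a1* (adjusted p = 0.00835 and 0.00032). Without medium replicate 3 that of *Col1a1* passed too (-0.93, adjusted p = 0.0397). *Col6a3* fell from 13.0 ± 1.36 to 5.55 ± 1.94 FPKM (log2 difference -1.14 ± 0.18, adjusted p = 0.000684), *Bgn*, the proteoglycan biglycan, from 507 ± 52.5 to 352 ± 6.25 FPKM (log2 difference -0.52 ± 0.094, adjusted p = 0.00147), and *Lox*, which crosslinks collagen, from 233 ± 30.7 to 157 ± 6.13 FPKM (log2 difference -0.56 ± 0.12, adjusted p = 0.0032). *Ccn1* and *Tnc* rose from 33.1 ± 3.77 to 103 ± 6.34 FPKM (log2 difference 1.62 ± 0.10, adjusted p = 3.79e-07) and from 1.00 ± 0.0842 to 3.86 ± 1.30 FPKM (log2 difference 1.24 ± 0.16, adjusted p = 0.000115). Without cytokine replicate 2 the number of genes on this list that fell was 14, and after quantile normalization it was 16.

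The 15 largest falls were in genes of several kinds. *Ccn5*, a secreted matricellular protein of the CCN family, had 13.8, 12.04 and 12.4 FPKM in the medium libraries and 0.298, 0.851 and 0.133 FPKM in the cytokine libraries. All cytokine libraries were below 1 FPKM (29.8-fold lower, log2 difference -3.30 ± 0.16, adjusted p = 4.49e-08). *Thbs2*, which encodes a thrombospondin that binds matrix and proteases, had 115, 138 and 175 FPKM in the medium libraries and 20.3, 31.4 and 31.2 FPKM in the cytokine libraries. Its groups did not overlap (5.16-fold lower, log2 difference -2.33 ± 0.17, adjusted p = 1.68e-06). *Thbs1*, its relative, fell from 327 ± 41.4 to 95.4 ± 43.4 FPKM (log2 difference -1.86 ± 0.26, adjusted p = 0.000256). The small leucine-rich proteoglycans *Omd* and *Ogn* fell from 10.6 ± 3.27 to 1.53 ± 0.578 FPKM (log2 difference -2.18 ± 0.26, adjusted p = 7.83e-05) and from 65.8 ± 23.3 to 16.2 ± 2.63 FPKM (log2 difference -1.91 ± 0.29, adjusted p = 0.000454). *Diras2*, a small GTPase, fell from 9.93 ± 2.31 to 0.683 ± 0.311 FPKM (log2 difference -2.69 ± 0.16, adjusted p = 2.53e-07) and *Lrrc17* from 4.65 ± 1.62 to 0.471 ± 0.0754 FPKM (log2 difference -1.91 ± 0.15, adjusted p = 3.69e-06). The lncRNA loci *Gm52906* and *Gm39353*, the pseudogene *LOC118568657* and the small nucleolar RNA *Snord98* completed the 15 largest falls. *Snord98* rested on at most 4 fragments in a library.

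Of 34 expressed genes of BMP, TGF-β, Hedgehog and Wnt signalling 14 fell and 3 rose, and the risers were 1 without medium replicate 1 or 2, without cytokine replicate 1 or 2 and in a fit of the 6 control libraries alone. Of the 34, 1 entered through the medium libraries alone, and of the 29 with 1 FPKM in every library 12 fell and 3 rose. *Id2*, which encodes an inhibitor of basic helix-loop-helix factors and is a known BMP target, had 87.0, 88.7 and 119 FPKM in the medium libraries and 18.7, 13.5 and 18.1 FPKM in the cytokine libraries. All cytokine libraries were the lower ones (5.87-fold lower, log2 difference -2.48 ± 0.15, adjusted p = 2.65e-07). *Id4*, *Id3* and *Id1* of the same family fell from 3.60 ± 0.981 to 0.490 ± 0.126 FPKM (log2 difference -1.61 ± 0.15, adjusted p = 9.63e-06), from 369 ± 29.1 to 133 ± 40.7 FPKM (log2 difference -1.51 ± 0.20, adjusted p = 0.000155) and from 101 ± 9.12 to 49.8 ± 13.1 FPKM (log2 difference -1.03 ± 0.18, adjusted p = 0.00117). *Bmp4*, a BMP ligand, had 36.7, 39.1 and 39.8 FPKM in the medium libraries and 8.20, 11.9 and 9.48 FPKM in the cytokine libraries. It fell without overlap (3.91-fold lower, log2 difference -1.88 ± 0.11, adjusted p = 2.87e-07). *Smad6*, an inhibitor and target of BMP signalling, and *Smad9*, which carries it, fell from 19.7 ± 3.48 to 6.45 ± 1.99 FPKM (log2 difference -1.50 ± 0.18, adjusted p = 8.08e-05) and from 10.6 ± 0.938 to 2.99 ± 0.868 FPKM (log2 difference -1.55 ± 0.15, adjusted p = 1.76e-05). *Ptch1*, the Hedgehog receptor and a Hedgehog target, had 29.9, 35.9 and 42.4 FPKM in the medium libraries and 7.07, 7.47 and 7.24 FPKM in the cytokine libraries. The 2 sets of libraries were well separated (4.97-fold lower, log2 difference -2.15 ± 0.11, adjusted p = 6.7e-08), while *Gli1*, another Hedgehog target, had 22 and 32 fragments and was below the limit. *Tgfbi* fell from 58.5 ± 4.10 to 17.5 ± 2.54 FPKM (log2 difference -1.70 ± 0.11, adjusted p = 6.02e-07), and *Dkk3*, a secreted protein of the Dickkopf family, from 7.09 ± 0.702 to 1.77 ± 0.578 FPKM (log2 difference -1.56 ± 0.14, adjusted p = 9.84e-06). *Inhba*, a subunit of activin A, rose from 3.73 ± 0.190 to 11.8 ± 2.03 FPKM (log2 difference 1.43 ± 0.12, adjusted p = 4.86e-06).

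Mitotic genes fell by small amounts and genes of DNA replication moved little. Of 38 genes of G2 phase and mitosis, all of them expressed, 26 fell and 1 rose (none under the other scalings, in a fit of the 6 control libraries, or without medium replicate 2 or 3 or cytokine replicate 1 or 2), with a median log2 difference of -0.45. *Kif11*, a spindle motor, had 37.6, 37.0 and 40.8 FPKM in the medium libraries and 20.8, 19.5 and 20.8 FPKM in the cytokine libraries. The 3 cytokine libraries were the lowest (1.89-fold lower, log2 difference -0.88 ± 0.15, adjusted p = 0.001). *Kif20a* fell from 14.1 ± 0.312 to 8.48 ± 0.400 FPKM (log2 difference -0.68 ± 0.065, adjusted p = 1.57e-05), *Mki67*, which encodes the proliferation marker Ki-67, from 28.7 ± 6.39 to 13.1 ± 1.09 FPKM (log2 difference -1.05 ± 0.26, adjusted p = 0.00898), *Top2a* from 137 ± 9.34 to 94.9 ± 10.01 FPKM (log2 difference -0.53 ± 0.14, adjusted p = 0.014) and *Cdc20* from 73.9 ± 5.38 to 56.4 ± 7.06 FPKM (log2 difference -0.39 ± 0.11, adjusted p = 0.0153). *Cdk1* (40.2 ± 2.35 to 42.2 ± 0.822 FPKM), *Ccnb1* (74.4 ± 7.15 to 65.6 ± 4.62 FPKM) and *Plk1* (24.6 ± 4.30 to 23.04 ± 2.47 FPKM) did not pass. The call of *Cdc20* was lost without medium replicate 1 (adjusted p = 0.0541) and that of *Top2a* without cytokine replicate 3 (adjusted p = 0.0531). Without cytokine replicate 3 the number that fell was 17, and under the other scalings it was 30 and 33. Of 49 genes of replication and S phase 11 (22.4%) rose, 5 (10.2%) fell and 33 did not pass, with a median of 0.07. These shares were near the 19.3% and 15.6% of all genes tested. After quantile normalization 8 of the 49 rose and 15 fell. The number of these that fell was 3 without medium replicate 3 and 8 without cytokine replicate 1. The inhibitor genes of the cycle moved apart, *Cdkn1b* down from 55.3 ± 3.45 to 22.7 ± 0.644 FPKM (log2 difference -1.25 ± 0.070, adjusted p = 1.74e-07) and *Cdkn1a* up from 2.31 ± 0.293 to 7.10 ± 0.363 FPKM (log2 difference 1.29 ± 0.10, adjusted p = 3.23e-06), and *Ccnd1*, which encodes cyclin D1, rose from 13.5 ± 3.28 to 33.9 ± 3.52 FPKM (log2 difference 1.28 ± 0.14, adjusted p = 3.95e-05).

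Genes of lipid synthesis also fell. Of 32 expressed genes of cholesterol and fatty acid synthesis 18 fell, none rose and 14 did not pass, with a median log2 difference of -0.37. The number that fell was 15 to 17 with 1 library left out and 13 in a fit of the 6 control libraries. It was 24 after quantile normalization and 21 after scaling to the sum of fragments. *Scd2*, a stearoyl-CoA desaturase, had 304, 311 and 266 FPKM in the medium libraries and 119.7, 123 and 143 FPKM in the cytokine libraries. Every cytokine library was below every medium library (2.29-fold lower, log2 difference -1.19 ± 0.091, adjusted p = 2.62e-06). *Scd1* fell from 42.1 ± 4.0 to 24.8 ± 1.12 FPKM (log2 difference -0.73 ± 0.082, adjusted p = 5.06e-05), *Insig1*, which holds SREBP in the endoplasmic reticulum, from 41.6 ± 3.40 to 24.6 ± 1.42 FPKM (log2 difference -0.73 ± 0.077, adjusted p = 3.15e-05), *Stard4* from 24.8 ± 0.969 to 15.1 ± 0.559 FPKM (log2 difference -0.68 ± 0.085, adjusted p = 0.000114) and *Hmgcs1* from 72.3 ± 4.73 to 48.2 ± 2.73 FPKM (log2 difference -0.57 ± 0.11, adjusted p = 0.00221).

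**Figure D3:**
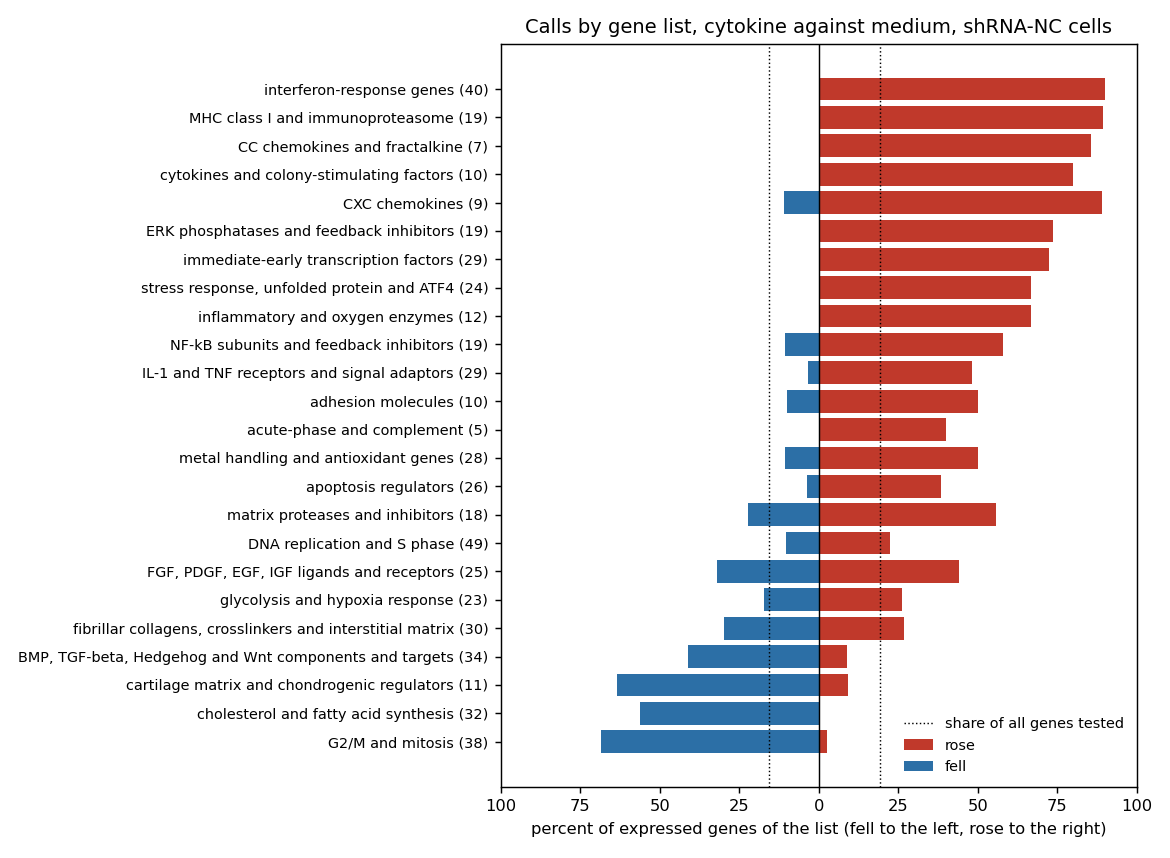
Share of the expressed genes of each of 24 lists that rose (right of 0), fell (left of 0) or did not pass (the remainder to 100%), with the number expressed in parentheses. The interferon and MHC class I lists reach furthest to the right, and the mitosis, cartilage and lipid lists furthest to the left, against 19.3% and 15.6% of all 11679 genes. Genes that entered through the cytokine libraries alone are included, 13 of them among the interferon genes.

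The motifs of NF-κB, AP-1 and interferon-activated factors stood in a larger share of the promoters of strongly rising genes than of genes that did not pass. The RefSeq table holds promoters of 27025 genes, as windows from 250 bases before to 50 after a gene start, and 8612 of the 11679 genes matched it by gene number. Motifs were searched on both strands and a gene counted when any of its windows held a match. The NF-κB consensus stood in 15 of the 64 matched genes that rose by 2 or more on the log2 scale (23.4%), in 41 of the 240 that rose by 1 or more (17.1%), in 5.86% of the genes that did not pass and in 5.26% of those that fell by 1 or more. In the promoters of all 27025 genes its share was 5.14%. Besides the genes shown, *Cxcl10* included, the strong risers with this motif were *Ccl20*, *Csf1*, *Nfkbie*, *Tnfaip3*, *Tlr2*, *Gbp5*, *H2-K1*, *Ier3* and *Maff*. The AP-1 motif TGANTCA stood in 21.9% of the strong risers, 5.12% of the genes that did not pass and 8.97% of all promoters, and in 9.47% of the genes that fell by 1 or more. The interferon-stimulated response element stood in 8 strong risers (12.5%), in 3.17% of the genes that did not pass and in 3.99% of all promoters. The serum response element, by its CArG consensus, stood in 1.56% of the strong risers and 1.81% of all promoters. These shares are descriptions, with no test. Of all 88 genes that rose by 2 or more, 21 entered through the cytokine libraries alone, as did 69 of all 356 that rose by 1 or more. A window without a match says only that these letters are not in it. *Ccl2*, *Cxcl5*, *Ccl5*, *Ccl7*, *Vcam1* and *Nos2* have no entry in the table.

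**Figure D4:**
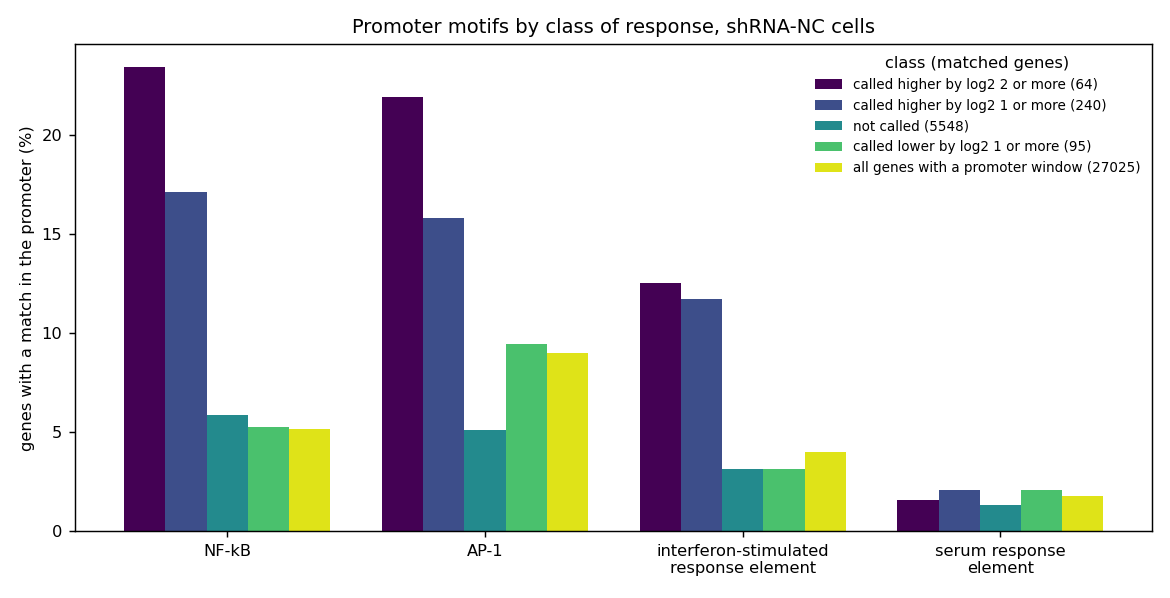
Percentage of matched genes whose promoter holds each of 4 motifs (bars from 0), by class of response, with the number of matched genes in each class in the legend. The NF-κB bar is 23.4% for genes up by 2 or more and 5.14% for all promoters of the table, while the serum response element stays near 2% or below in every class.

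The response of control cells was set against that of the line with the *Ddx5* hairpin, in which *Ddx5* lay between 90.7 and 118 FPKM. The difference of the responses, tested as an interaction, passed in 838 of the 11679 genes (7.18%). It passed in 139 of the 356 genes that rose by 1 or more in control cells. Of these, 90 rose less or moved down with the *Ddx5* hairpin and 49 rose more. Of the 130 genes that fell by 1 or more 37 passed, and 31 of these fell less or moved up. The direction was the same in both lines for 331 of the 356 and 125 of the 130. The interaction uses the same control libraries that chose these genes, so the counts are a description. Over all genes the number that passed was 429, 471 and 496 without replicates 3, 1 and 2 of the *Ddx5* line with cytokines, 464 without its medium replicate 3 and 499 without medium replicate 2 of the control line. Within lists, 14 of the 19 genes on the list of phosphatases and ERK feedback inhibitors, 23 of the 40 interferon genes and 10 of the 29 immediate-early genes passed. *Egr1* differed most downward, with a log2 response of 4.09 in control cells and 0.35 with the *Ddx5* hairpin (difference -3.74, adjusted p = 0.000152). *Dusp5* came next, with 2.07 and -0.99 (difference -3.06, adjusted p = 6.71e-05). *Errfi1* (3.25 and 1.16, adjusted p = 0.000203), *Spry2* (1.56 and -0.18, adjusted p = 0.000546) and *Ccnd1* (1.28 and -0.39, adjusted p = 0.000683) were of the same kind. *Cxcl1* differed by -2.27 and *Cxcl5* by -1.79 (adjusted p = 0.000991 and 0.000546), where the *Ddx5* line had more *Cxcl1* in medium (23.9 to 26.0 FPKM) and a similar level with the cytokines (1998 to 2159 FPKM). The response was larger with the *Ddx5* hairpin in *Saa3* (difference 4.11, adjusted p = 0.00677), *Lcn2* (3.52, adjusted p = 0.00452), *Nos2* (2.55, adjusted p = 0.000991), *Ifit1* (1.88, adjusted p = 0.0017) and *Gbp2* (1.25, adjusted p = 0.000203). *Saa3*, *Lcn2* and *Nos2* lay at or near 0 in control medium, and with voom weights on the recovered fragments none of the 3 differences passed and that of *Nos2* was -1.20. *Vcam1*, *Ccl2*, *Ccl7*, *Tnfaip3* and *Nfkbia* did not pass, with differences between -0.53 and 0.29.

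**Figure D5:**
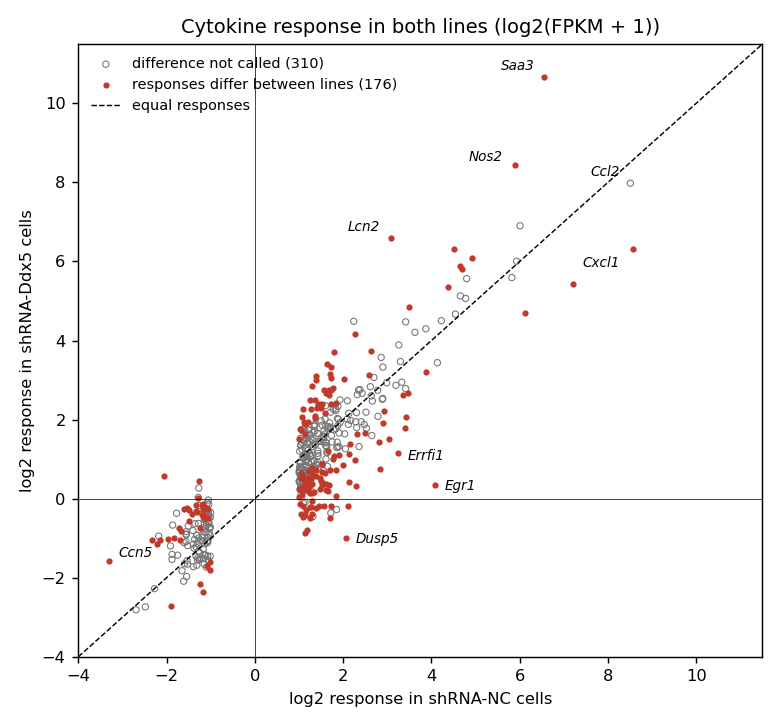
Log2 response to the cytokines in shRNA-NC cells (x axis) and in shRNA-*Ddx5* cells (y axis) for the 486 genes that passed with a log2 difference of at least 1 in shRNA-NC cells, with filled points for the 176 genes whose responses differed between the lines and the dashed line of equal responses. *Egr1* and *Dusp5* lie near or below 0 on the y axis, and *Saa3*, *Lcn2* and *Nos2* lie above the line.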

How the data were processed

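RNA-seq of 12 ATDC5 cultures was analysed, 3 for each pair of hairpin and medium, grouped by their labels. The authors selected polyadenylated RNA, counted fragments on genes and deposited FPKM for 46731 genes. The submitters' processing notes name HISAT2 2.0.5, featureCounts 1.5.0-p3 and build mm10, whereas the coordinates in the table carry RefSeq chromosome numbers of GRCm39. The strand setting is not given in the sources used here, so reads of a gene and of an antisense partner could not be told apart. FPKM times gene length gave, in each library, whole multiples of 1 fixed value for 100% of the entries (tolerance 1e-06), and these multiples are the fragments quoted. Floors of 3 fragments per library and intervals cover counting error only.

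Genes with at least 1 FPKM in at least 3 of the 6 shRNA-NC libraries were kept. The lowest deciding value inside this limit was 1.00 FPKM and the highest outside it 0.998 FPKM. Values were tested as log2(FPKM + 1), with a pseudocount of 1, by limma 3.58.1 in R 4.3.3 (lmFit, contrasts.fit, eBayes with trend), with 4 group means over all 12 libraries and no covariate. Benjamini-Hochberg adjustment over all genes kept was used with a threshold of 0.05. A second contrast compared the response between the hairpins. For a single value, an exact permutation test of 3 against 3 cultures cannot go below 0.1 and was not used.

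The genes and lists were chosen with earlier results of these data known. In each list, core members, up to 6 of the largest called differences and the most abundant member were named, and outside the lists the 15 largest rises and falls, the 5 largest rises and falls of FPKM, and the 5 largest differences between hairpins in each direction. The 15 largest rises and falls were taken by log2 difference among called genes whose groups did not overlap. *Ackr3*, *Ccl25*, *Cxcl9*, *Cyld*, *Gbp7*, *Ikbkg*, *Il34*, *Inhba*, *Runx1*, *Smad9* and *Sox5* were named after their values were seen. The alternatives were a pseudocount of 0.1, other filters and scalings, voom weights, eBayes without trend, a replicate block, an added log2 limit of 1, a fit of 6 libraries and each library left out. A few genes are not reported here. Motifs were searched in RefSeq promoters of GRCm38.p6. Python 3.11.15 with matplotlib 3.10.9 drew the figures.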

Additional observations from a re-analysis of the deposited data

Results flagged for a closer look

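The cytokine response differed between the control and the *Ddx5* hairpin, by the interaction test of limma with Benjamini-Hochberg adjustment, in 12 genes named for it. The log2 difference of the responses (*Ddx5* hairpin minus control) was below 0 in *Egr1* (-3.74), *Dusp5* (-3.06), *Cxcl1* (-2.27), *Errfi1* (-2.09), *Cxcl5* (-1.79), *Spry2* (-1.74) and *Ccnd1* (-1.67). It was above 0 in *Saa3* (4.11), *Lcn2* (3.52), *Nos2* (2.55), *Ifit1* (1.88) and *Gbp2* (1.25), but with voom weights *Saa3*, *Lcn2* and *Nos2* did not pass and *Nos2* turned to -1.20. The genes were named for the size of this difference or for the response in the control libraries, which enter both contrasts.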

How the results depend on the processing

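The number of genes that passed lay between 3045 and 4252 under every alternative except the added log2 limit of 1, which left 486, and between 3153 and 3804 with 1 library left out. For the difference between hairpins it lay between 564 and 1016, was 177 with the log2 limit, and ran from 429 to 928 with 1 library left out. The split into higher and lower genes depended on the scaling, with 55.2% of the called genes higher as deposited, 43.1% after quantile normalization and 42.2% after scaling to the sum of fragments, which moved the median log2 difference of all genes from 0.02 to -0.05. The replicate block gave 3672 and 564 genes. Deviations from the group mean correlated at -0.39, 0.14 and -0.31 between control cultures of the same replicate number. Between cultures of different numbers they correlated at -0.27 to 0.40, so these values cannot show whether the cultures were paired. The cause of the change in calls was not tested.

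Of the 172 named genes that passed for the cytokine response, none changed direction under the alternatives run. Beside the log2 limit of 1, which 31 of them did not reach, the call was lost in some setting for *Cdc20*, *Col2a1*, *Top2a* and *ND1*. With only the 6 control libraries in the fit the adjusted p was 0.0507 for *Cdc20*, 0.0563 for *Col2a1* and 0.105 for *ND1*. Of *ND1* the call was also lost with no filter (adjusted p = 0.121) and after quantile normalization (0.0962). The call was gained under another scaling, weighting or pseudocount for *Adamts5*, *Ccnb1*, *Col1a1* and *Tnfrsf1a*. For the difference between hairpins, 3 of 12 named genes lost their call with voom weights, *Lcn2* (2.44), *Saa3* (2.18) and *Nos2*, whose sign turned (-1.20), and *Saa3* also with a pseudocount of 0.1 (2.89). The causes of these changes were not tested. Genes at 0 in medium have a difference whose size rests on the pseudocount.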

Other observations

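Of 24 expressed genes of the stress response, the unfolded protein response and ATF4 16 rose and none fell at the threshold, with a median log2 difference of 0.53. *Hspb1*, which encodes a small heat shock protein, had 31.8, 33.5 and 29.5 FPKM in the medium libraries and 101, 109 and 87.2 FPKM in the cytokine libraries (log2 difference 1.61 ± 0.12, adjusted p = 2.55e-06). *Atf4*, a transcription factor made under stress, had 286, 269 and 153 FPKM in the medium libraries and 509, 449 and 451 FPKM in the cytokine libraries. Medium replicate 3 was the lowest library of *Atf4*, and the groups did not overlap (log2 difference 1.04 ± 0.20, adjusted p = 0.00213). *Hspa5*, the main chaperone of the endoplasmic reticulum, had 163, 159 and 192 FPKM in the medium libraries and 469, 282 and 310.1 FPKM in the cytokine libraries. Cytokine replicate 1, the library with the largest mitochondrial share, stood highest (log2 difference 1.01 ± 0.16, adjusted p = 0.000558), and with any 1 library left out 14 to 16 genes of the list rose. *Ppp1r15a* and *Trib3*, both targets of ATF4, rose by 1.34 and 1.12 (adjusted p = 5.56e-05 and 0.000288), while *Hspa8*, the most abundant member, overlapped between the groups and did not pass (adjusted p = 0.733).

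Among 28 expressed genes of metal handling and antioxidant defence 14 rose and 3 fell, and the number that fell was 1 without medium replicate 3 or cytokine replicate 3 and in a fit of the 6 control libraries, and 5 without cytokine replicate 1. Of the 28, 1 entered through the cytokine libraries alone and 1 through the medium libraries alone. With 1 FPKM required in all 6 libraries 12 of 26 rose and 2 fell. *Slc7a11*, the cystine transporter, had 3.99, 4.43 and 3.72 FPKM in the medium libraries and 31.2, 18.9 and 21.99 FPKM in the cytokine libraries. All cytokine libraries were far above all medium libraries (log2 difference 2.28 ± 0.17, adjusted p = 1.7e-06). *Slc11a2*, an iron transporter, went from 9.78 ± 0.338 to 34.1 ± 2.11 FPKM (log2 difference 1.70 ± 0.073, adjusted p = 1.85e-08), *Slc39a14*, which takes up zinc and iron, from 2.66 ± 0.0646 to 7.09 ± 1.56 FPKM (log2 difference 1.13 ± 0.11, adjusted p = 2.17e-05), and *Mt2*, a metallothionein, from 0.429 ± 0.466 to 4.94 ± 0.684 FPKM (log2 difference 2.10 ± 0.19, adjusted p = 9.77e-06). *Nqo1*, a known NRF2 target, did not pass (4.23 ± 0.224 to 3.80 ± 0.656 FPKM, adjusted p = 0.351). Of 26 expressed apoptosis regulators 10 rose and 1 fell. Of these 26, 1 entered through the cytokine libraries alone, and of the 24 with 1 FPKM in every library 9 rose and 1 fell. *Bid*, which links death receptors to mitochondria, had 8.16, 9.76 and 10.1 FPKM in the medium libraries and 46.6, 40.8 and 36.8 FPKM in the cytokine libraries. The groups did not overlap (log2 difference 2.04 ± 0.10, adjusted p = 5.79e-08). *Mcl1*, which opposes cell death, went from 21.98 ± 0.815 to 35.0 ± 4.13 FPKM (log2 difference 0.64 ± 0.084, adjusted p = 0.000167), while *Casp8* and *Bax* did not pass.

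Of 23 expressed genes of glycolysis and the hypoxia response 6 (26.1%) rose and 4 (17.4%) fell, shares near those of all genes tested (19.3% and 15.6%). *Ndrg1*, a known hypoxia target, had 9.95, 10.3 and 11.1 FPKM in the medium libraries and 52.4, 37.8 and 36.9 FPKM in the cytokine libraries. The groups did not overlap (log2 difference 1.90 ± 0.12, adjusted p = 3.89e-07). *Hk2*, a hexokinase, went from 6.24 ± 0.766 to 19.2 ± 0.862 FPKM (log2 difference 1.48 ± 0.093, adjusted p = 4.11e-07) and *Slc2a1*, the glucose transporter, from 24.8 ± 2.19 to 48.9 ± 0.806 FPKM (log2 difference 0.95 ± 0.079, adjusted p = 4.44e-06), whereas *Pfkm*, a phosphofructokinase, fell from 26.4 ± 1.58 to 14.3 ± 1.46 FPKM (log2 difference -0.85 ± 0.10, adjusted p = 0.000103). Measured in FPKM rather than in fold, *ND1*, a mitochondrial gene, and *S100a10* were among the 5 largest rises, and *Vim* and *Gas1* among the 5 largest falls. *ND1* had 2398, 2475 and 1512 FPKM in the medium libraries and 5491, 2914 and 2917 FPKM in the cytokine libraries. Cytokine replicate 1 stood far above the other 5 libraries (log2 difference 0.79 ± 0.26, adjusted p = 0.0322), and the difference did not pass without it (0.49, adjusted p = 0.0979) or without medium replicate 3 (0.56, adjusted p = 0.11). *Vim*, which encodes vimentin, fell from 1641 ± 277 to 1094 ± 19.6 FPKM (log2 difference -0.57 ± 0.12, adjusted p = 0.00367), and *S100a10* rose from 389.8 ± 76.1 to 780.1 ± 12.3 FPKM (log2 difference 1.02 ± 0.15, adjusted p = 0.000444).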
